A study of Mus musculus with 4 samples.

Results

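Among 45706 genes counted in mouse embryonic stem cells, 38 were close to silent before Cas9 was induced and were detected in both libraries collected 24 h later. They were chosen by level, in reads per 1000000 counted reads of each library (CPM): under 0.25 CPM in both 0 h libraries, at least 0.5 CPM in both 24 h libraries, and a 24 h mean at least 4 times the 0 h mean, with the 0 h mean set to at least 0.06. In these libraries 0.25 CPM is 12.2 to 13.1 reads. The 24 h and 0 h values of these genes therefore chose them, and they are given as a description, with no test. The 38 were 0.135% of the 28166 genes under 0.25 CPM in both 0 h libraries and 0.0831% of all genes. Pvalb, Il9r and Mup6 were the members with the highest 24 h levels.

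The cells were V6.5, a mouse embryonic stem cell line grown on irradiated feeder cells with serum, LIF and 2i (inhibitors of MEK and GSK3). Lentivirus had given them doxycycline-inducible Cas9 joined to GFP, the transactivator rtTA, a puromycin marker and guide RNAs that targeted either only Klf4 or the trio Klf2, Klf4 and Klf5, and clones had been picked. The 0 h libraries (replicates A and B, genotype label KLF WT) had no doxycycline, and the 24 h libraries (replicates A and B, genotype label KLF KO) had doxycycline for 24 h. Every title begins with TKO, read here as triple knockout. After that, titles of the 0 h libraries name wild-type stem cells and those of the 24 h libraries a KLF4 knockout. Which guides each library carried, and which clone it came from, is therefore uncertain. The drug, the Cas9 breaks, the missing KLF protein and the passing of a day cannot be told apart in this comparison.

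Genes of specialised tissues are kept silent in stem cells, many of them behind promoters with few CpG sites that need tissue-specific factors. A trace of RNA from such a gene can come from a low level in all cells or a higher level in few cells, and bulk libraries cannot tell these apart. KLF2, KLF4 and KLF5 are zinc-finger factors that support the stem cell state and bind sites with a CACCC core.

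Libraries held 46031578 to 52412844 counts, and the upper limit set by a count of 0 lay between 0.0572 and 0.0652 CPM by library (3 counts of the total, for counting error only). The stem cell factors Pou5f1 (538 to 816 CPM), Sox2 (494 to 552) and Nanog (938 to 1234) were high in all 4 libraries. The targeted transcripts were present in every library, with Klf2 at 224 and 123 CPM at 0 h and 151 and 155 at 24 h. Klf4 was at 320 and 256 CPM at 0 h and 250 and 240 at 24 h, and Klf5 at 416 and 293, then 231 and 219. An edited gene can still be transcribed, so these values do not check the labels. The labels call the libraries of a group biological replicates, without saying which clone or culture each came from.

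Promoter sequence was available for 30 of the 38 members, from RefSeq on GRCm38.p6. The 250 bases before the annotated start are shown for the 3 members with the highest 24 h level and for the chemokine gene Cxcl10, the member whose promoter held both immune motifs searched. Capitals mark matches, on either strand, to CACCC (read as GGGTG on the other strand), TATAAA, a pair of GAAA separated by any 2 bases (the core of the interferon-stimulated response element) and GGGA followed, after any 2 bases, by TTCC (a form of the NF-kB site). No matches overlapped in these 4 sequences.
Mup6, chr4:60003231-60003480, plus strand: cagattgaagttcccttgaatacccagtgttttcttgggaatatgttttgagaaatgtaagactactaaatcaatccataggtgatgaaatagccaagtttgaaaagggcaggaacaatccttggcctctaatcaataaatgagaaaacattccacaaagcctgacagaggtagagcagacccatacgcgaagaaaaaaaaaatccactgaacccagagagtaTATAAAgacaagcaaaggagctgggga
Il9r, chr11:32200280-32200529, minus strand: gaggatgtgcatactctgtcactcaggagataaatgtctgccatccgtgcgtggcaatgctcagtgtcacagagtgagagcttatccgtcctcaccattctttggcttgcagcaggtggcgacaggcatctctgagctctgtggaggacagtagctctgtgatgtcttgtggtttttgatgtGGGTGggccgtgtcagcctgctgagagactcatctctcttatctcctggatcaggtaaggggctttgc
Pvalb, chr15:78206401-78206650, minus strand: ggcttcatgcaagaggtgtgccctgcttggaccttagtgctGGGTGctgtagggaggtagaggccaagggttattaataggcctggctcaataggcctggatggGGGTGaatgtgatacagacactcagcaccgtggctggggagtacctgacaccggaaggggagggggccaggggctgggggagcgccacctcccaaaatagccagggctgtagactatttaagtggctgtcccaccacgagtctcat
Cxcl10, chr5:92348890-92349139, minus strand: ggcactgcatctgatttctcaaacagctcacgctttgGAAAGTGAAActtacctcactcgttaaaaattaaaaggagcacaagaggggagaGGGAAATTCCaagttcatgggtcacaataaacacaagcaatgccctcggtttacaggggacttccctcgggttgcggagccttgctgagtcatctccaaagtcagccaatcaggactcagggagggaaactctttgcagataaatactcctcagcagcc
The Mup6 stretch held a TATA box at position -27 (the base before the start is -1) and no other match, and Il9r held a single CACCC core at position -68. Pvalb held 2 CACCC cores. Cxcl10 held the interferon motif at position -213 and the NF-kB form at -159, and neither a CACCC core nor TATAAA. For Mup6 the RefSeq start lies 39.2 kb from the GENCODE start, so the shown stretch need not be the one in use here.

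**Figure D1:**
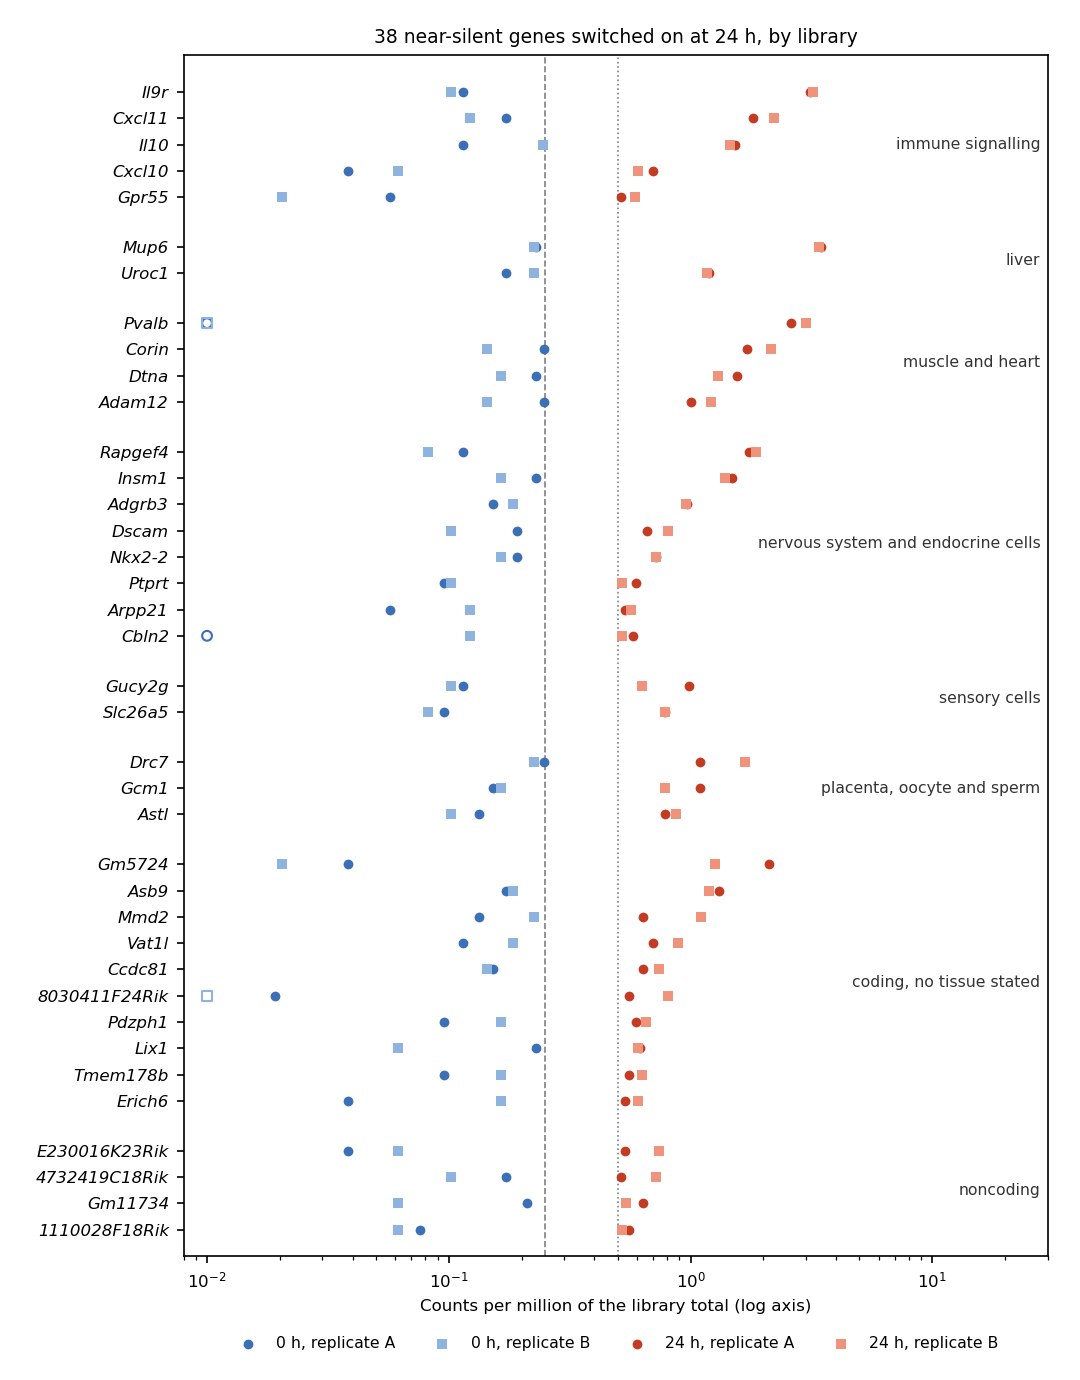
Each of the 38 genes by library, in CPM on a log axis, grouped by the tissues known to use them. Blue points are the 0 h and red points the 24 h libraries, circles replicate A and squares replicate B, open symbols at the left edge stand for 0 counts, and the dashed and dotted lines mark the limits of 0.25 and 0.5 CPM. Il9r, Mup6 and Pvalb lie farthest right, at 2.59 to 3.46 CPM at 24 h.

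By general knowledge of where they are used, grouped after their values were seen, the 38 fell into several tissues with no single one holding most. The groups were immune signalling (5 genes), liver (2), muscle and heart (4), nervous system and endocrine cells (8), sensory cells (2), and placenta, oocyte and sperm (3). A further 10 coding genes are given no tissue here, and 4 are noncoding. Summed over the 38, the level was 4.98 and 4.77 CPM at 0 h and 41.7 and 43.4 CPM at 24 h.

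The immune group held 2 chemokines, a cytokine and 2 receptors. Il9r (chromosome 11, 32187541 to 32200279) encodes the interleukin 9 receptor of T cells and mast cells. It was at 0.114 and 0.102 CPM at 0 h (6 and 5 counts) and 3.13 and 3.22 CPM at 24 h (152 and 148 counts), so both 24 h libraries were high and close to each other. The ratio of the pooled levels was 29.2, with a 95% interval of 16.1 to 59.1 from counting error alone (exact binomial, as for all such intervals here). Il10, the anti-inflammatory cytokine interleukin 10 (chromosome 1, 131019845 to 131024974), was at 0.114 and 0.246 CPM and then 1.52 and 1.46. The 0 h libraries of Il10 differed from each other by more than the 24 h libraries did, and the higher one lay just under the limit. Gpr55, a G protein-coupled receptor for lysophosphatidylinositol, was at 0.0572 and 0.0205 CPM and then 0.514 and 0.587, close to the 24 h limit in replicate A.

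Cxcl10 and Cxcl11, chemokines that attract T cells through the receptor CXCR3, were the closest pair of members, 10.7 kb apart on chromosome 5. Cxcl11 (92359544 to 92365485, annotated as a polymorphic pseudogene) was at 0.172 and 0.123 CPM at 0 h and 1.81 and 2.22 CPM at 24 h. Cxcl10 (92346638 to 92348889) was at 0.0382 and 0.0614 CPM and then 0.700 and 0.608. Both were high in both 24 h libraries, with pooled ratios of 13.6 (8.01 to 24.7) and 13.3 (5.39 to 42.3). Art3, a mono-ADP-ribosyltransferase gene on the other strand whose span (92331827 to 92414628) holds both chemokine genes, was at 0.248 and 0.348 CPM and then 2.53 and 2.19. Art3 was chosen after its values were seen. It missed the rule by its level in 0 h replicate B, and shares 133 exon bases with Cxcl10 and none with Cxcl11. The strand setting of the counting is not given in the sources used here, so reads of Cxcl10 and Art3 may not be separable. Cxcl11 shares 1582 exon bases with the pseudogene Gm2673, which had 0 counts in every library.

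Other genes of this chemokine response were listed after the values of the pair were seen, and most had few or no reads. Cxcl9, the third CXCR3 ligand, 18.6 kb from Cxcl10 on the far side, had 0 counts in all 4 libraries, as did Cxcr3, Ifnb1, Ifng and the interferon-induced gene Ifit1. Isg15 was at 0 CPM in both 0 h libraries and 0.0412 and 0.0435 at 24 h. Irf1, a factor of the same pathway, was at 20.6 and 17.7 CPM at 0 h and 12.5 and 12.0 at 24 h. The receptor genes of interleukin 10 were Il10ra, at no more than 0.0217 CPM, and Il10rb, at 2.35 to 2.98 CPM. Its cluster neighbours Il19, Il20 and Il24 had 0 counts.

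**Figure D2:**
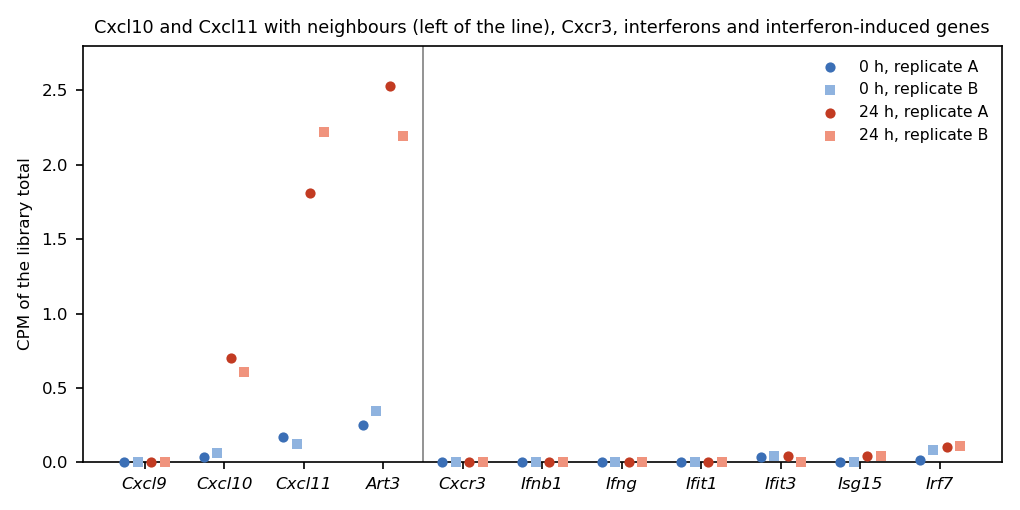
CPM of the library total (linear axis) for Cxcl9, Cxcl10, Cxcl11 and Art3, which lie together on chromosome 5, and to the right of the line for Cxcr3, 2 interferon genes and 4 interferon-induced genes. Blue points are 0 h and red points 24 h libraries, circles replicate A and squares replicate B. Cxcl10, Cxcl11 and Art3 are higher in both 24 h libraries, while Cxcl9 has 0 counts throughout and the genes on the right stay at or below 0.109 CPM.

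Of the liver genes, Mup6 (chromosome 4, 59964294 to 60007274) encodes a major urinary protein, a lipocalin that carries pheromones and is made mainly in liver. It was at 0.229 and 0.225 CPM at 0 h (12 and 11 counts) and 3.46 and 3.39 CPM at 24 h (168 and 156 counts), a pooled ratio of 15.1 (9.87 to 24.1). Replicates agreed closely in both groups. The 20 other Mup genes of the table had 0 counts in every library, although the family's members are near-identical and reads could be assigned to the wrong copy. Uroc1, the urocanase of histidine breakdown, was at 0.172 and 0.225 CPM and then 1.19 and 1.17.

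Pvalb (chromosome 15, 78191114 to 78206400) encodes parvalbumin, a calcium buffer of fast muscle fibres and of a class of inhibitory neurons. It was the only member with 0 counts in both 0 h libraries, and had 126 and 138 counts at 24 h, or 2.59 and 3.00 CPM. Against a floor of 3 counts over both 0 h libraries (0.0296 CPM), it was at least 94.2-fold higher at 24 h, and the lower limit of the exact binomial interval of its ratio was 76.0. Corin (chromosome 5, 72300025 to 72504473), the heart protease that activates atrial natriuretic peptide, was at 0.248 and 0.143 CPM and then 1.71 and 2.15. Dtna, which encodes a dystrobrevin of the dystrophin complex, was at 0.229 and 0.164 CPM and then 1.56 and 1.30. The metalloprotease gene Adam12 was at 0.248 and 0.143 CPM and then 1.01 and 1.22. Corin and Adam12 sat just under the 0 h limit in replicate A and lower in replicate B.

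The 8 genes of nervous system and endocrine cells had 24 h means of 0.549 to 1.81 CPM and pooled ratios of 4.04 to 18.3. Rapgef4, which encodes the cAMP sensor EPAC2 of brain and pancreatic islets, was the highest (chromosome 2, 71981240 to 72257474), at 0.114 and 0.0819 CPM at 0 h and 1.75 and 1.87 at 24 h. Insm1, a zinc-finger factor of endocrine and neuronal precursors, was at 0.229 and 0.164 CPM and then 1.48 and 1.39. Nkx2-2, a homeobox factor of ventral neural tube and islets, lies 953 kb from Insm1 on chromosome 2 and was at 0.191 and 0.164 CPM and then 0.720 and 0.717. Its ratio of 4.04 (2.38 to 7.22) was the smallest of the 38. Related factors, listed after these values were seen, differed among themselves: Neurod1 was at 3.91 and 3.85 CPM and then 15.1 and 16.2, and Neurog3 at 0.191 and 0.348 and then 0.638 and 0.456. Pax4 had 0 counts in every library.

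The other genes of this group are mostly cell-surface and synaptic genes. Adgrb3, an adhesion receptor of synapses, was at 0.153 and 0.184 CPM at 0 h and 0.967 and 0.956 at 24 h. Dscam, a neuronal adhesion molecule, was at 0.191 and 0.102 CPM and then 0.658 and 0.804. Ptprt (a receptor tyrosine phosphatase), Arpp21 (a cAMP-regulated phosphoprotein of striatum) and Cbln2 (a secreted synapse organiser) had 24 h means of 0.549 to 0.559 CPM. Cbln2 had 0 counts in 0 h replicate A and 6 in B, then 28 and 24 at 24 h, so its 0 h libraries stood apart while its 24 h libraries were close.

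Among sensory genes, Slc26a5, which encodes the motor protein prestin of cochlear outer hair cells, was at 0.0954 and 0.0819 CPM at 0 h and 0.782 in both 24 h libraries. Gucy2g, a membrane guanylyl cyclase, was at 0.114 and 0.102 CPM and then 0.988 and 0.630. Gcm1, the factor of placental syncytiotrophoblast (chromosome 9, 78051924 to 78065624), was at 0.153 and 0.164 CPM and then 1.09 and 0.782. Astl, the oocyte protease ovastacin, was at 0.134 and 0.102 CPM and then 0.782 and 0.869. Drc7, part of the dynein regulatory complex of sperm flagella and cilia, was at 0.248 and 0.225 CPM and then 1.09 and 1.67. In Gucy2g and Gcm1 replicate A was the higher 24 h library, and in Drc7 replicate B.

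Of the coding genes with no tissue stated, Gm5724 (chromosome 6, 141708118 to 141773810) had the highest 24 h level. It lies between Slco1a4 and Slco1b2, organic anion transporter genes. It had 2 and 1 counts at 0 h and 103 and 58 at 24 h (2.12 and 1.26 CPM), a ratio of 57.4 with an interval of 19.3 to 281. Near copies of it could share reads. The 6 genes named Slco1 in the table reached no more than 0.152 CPM in any library. 8030411F24Rik, in the cystatin gene cluster of chromosome 2, had 1 and 0 counts at 0 h and 27 and 37 at 24 h, and its neighbours Cst12 and Cst8 had 0 counts in every library. Its ratio of 68.5 had an interval of 11.9 to 2746. Asb9, a SOCS-box protein gene, was at 0.172 and 0.184 CPM and then 1.32 and 1.19. The remaining 7 had 24 h means of 0.572 to 0.873 CPM. Mmd2 was at 0.134 and 0.225 CPM and then 0.638 and 1.11, so that replicate B was the higher library at both times. Vat1l was at 0.114 and 0.184 CPM and then 0.700 and 0.891. Ccdc81, a coiled-coil protein gene, was at 0.153 and 0.143 CPM and then 0.638 and 0.739. Lix1, Pdzph1, Tmem178b and Erich6 ranged from 0.0382 to 0.229 CPM over the 0 h libraries and from 0.535 to 0.652 over the 24 h libraries, so their times lay apart by little more than the rule requires. The 4 noncoding members (Gm11734, E230016K23Rik, 1110028F18Rik and 4732419C18Rik) had 24 h means of 0.539 to 0.637 CPM and pooled ratios of 4.28 to 12.8. E230016K23Rik had the largest of these ratios, with 2 and 3 counts at 0 h and 26 and 34 at 24 h. 4732419C18Rik was at 0.172 and 0.102 CPM and then 0.514 and 0.717.

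**Figure D3:**
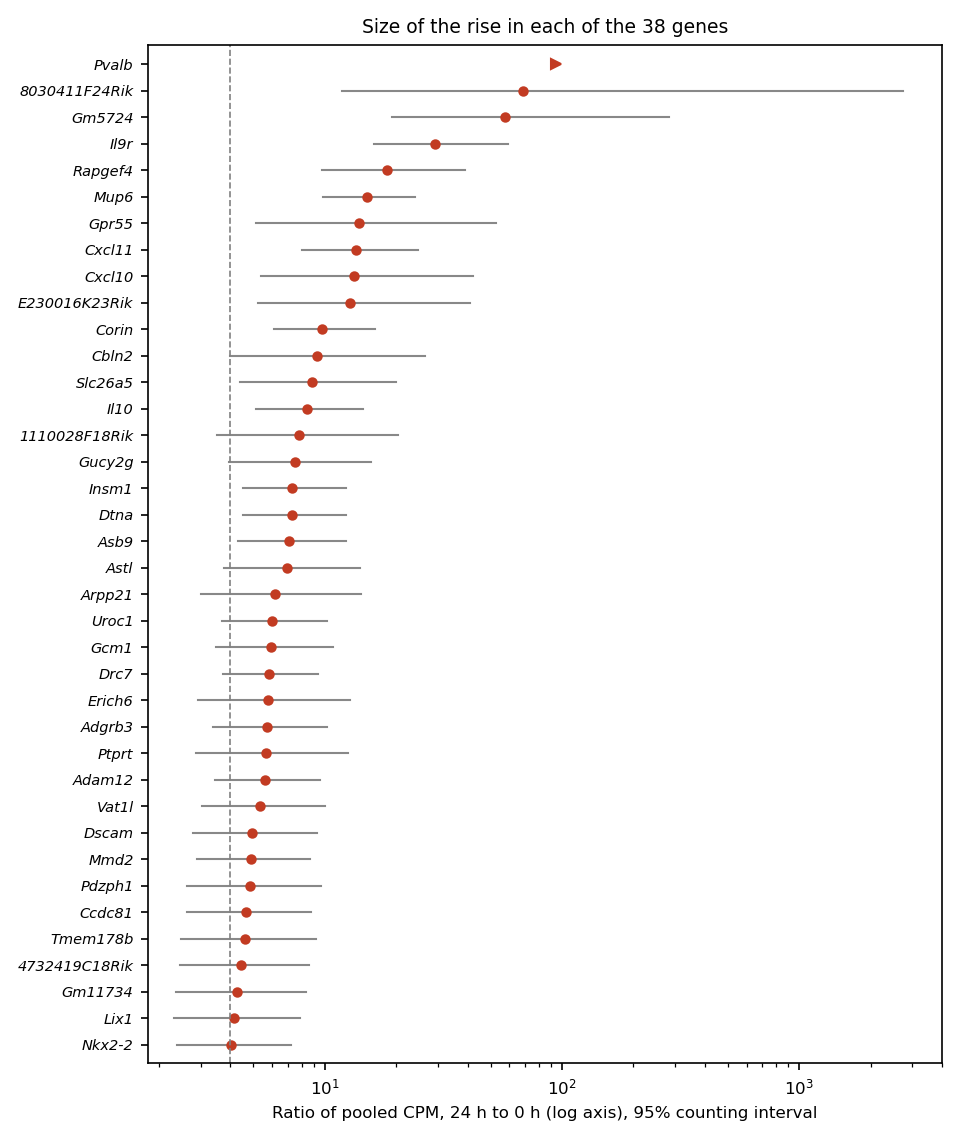
Ratio of pooled CPM at 24 h to 0 h for each of the 38 genes on a log axis, with lines for the 95% interval from counting error alone. The arrowhead for Pvalb, which had 0 counts at 0 h, marks its ratio to the floor of 3 counts (94.2; the lower limit of its counting interval, 76.0, is not drawn), the dashed line the limit of 4, and the interval is widest for 8030411F24Rik, which had 1 count at 0 h.

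The size of the difference varied widely among the members. In the 37 with reads at 0 h, the pooled ratio had a median of 6.96 and ran from 4.04 (Nkx2-2) to 68.5 (8030411F24Rik, on 1 count at 0 h). The rule's own ratio, in which a low 0 h mean is set to 0.06 CPM, had a median of 7.03 and a highest value of 46.6 (Pvalb), which that floor sets. Of the 38, 14 had at least 1 CPM in both 24 h libraries. Only 3 (Mup6, Il9r and Pvalb) had at least 2 CPM in both. The higher 24 h library was 1.00 to 1.74 times the lower one, with a median of 1.14. Mmd2, Gm5724 and Gucy2g had the widest replicate ratios, 1.74, 1.68 and 1.57. Per kilobase of merged exons, which allows levels of different genes to be set side by side, the 24 h level had a median of 0.258 CPM per kb. It was highest in Mup6 (3.42), Pvalb (2.69), Il10 (1.14), 8030411F24Rik (1.13) and Asb9 (1.10), and lowest in Arpp21 (0.0316). Il9r, with long exons, was at 0.641 CPM per kb. All 38 stayed far below the stem cell factors.

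Over the 18005 genes tested by edgeR's quasi-likelihood test, 6.8% were called at an adjusted p under 0.05 (Benjamini-Hochberg), 4.15% as higher at 24 h and 2.65% as lower. Of the 38 members 33 were called higher, which nothing is read from, since the rule used the same contrast. The uncalled 5 were 4732419C18Rik, Lix1, Gm11734, Erich6 and Cbln2. In Lix1 and Gm11734 the 0 h libraries stood apart, at 0.229 and 0.0614 CPM and at 0.210 and 0.0614.

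The rule with the times exchanged took 8 genes, or 0.0288% of the 27821 genes under 0.25 CPM in both 24 h libraries. Among them were Slamf6, Tbx5, Cd300ld, Cbln3, Ppp1r3g and Gm12530. Counts by the rule depended on every library, because each one left out removes a limit. Leaving out the 0 h libraries A and B in turn gave 74 and 71 genes, which held 34 and 33 of the 38. Leaving out the 24 h libraries A and B gave 68 and 61 genes, which held 38 and 36 of the 38. The mirrored counts in the same order were 19, 22, 19 and 10. The members just inside the 0 h limit were Corin, Drc7 and Adam12 (0.248 CPM each), and the genes just outside were Gdpd2 and P2rx6 (0.266) and Gdap1l1 (0.286). At the 24 h limit Gpr55 and 4732419C18Rik (0.514) and Cbln2 (0.521) were just inside, and Rgs20, Gm9949 and Clec4g (0.494) just outside. At the ratio of 4, Nkx2-2 (4.05), Lix1 (4.22) and Gm11734 (4.35) were just inside and Slc9a7 (3.91), Gm13530 (3.85) and Krt15 (3.79) just outside.

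**Figure D4:**
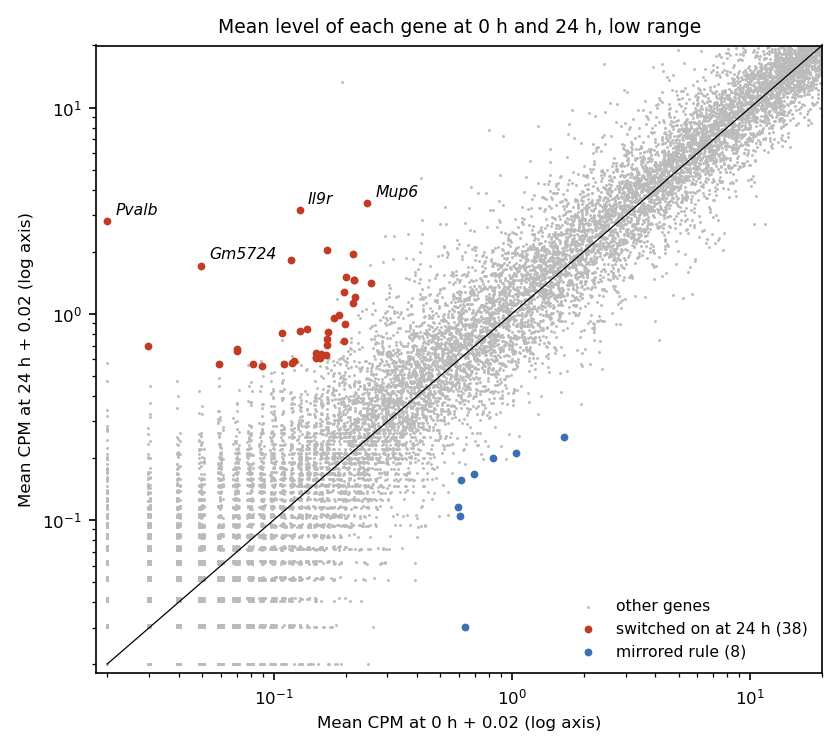
Mean CPM of each gene at 0 h and at 24 h, with 0.02 added, on log axes and for the low range only. Red points are the 38 genes near-silent at 0 h and present at 24 h, blue points the 8 genes that met the mirrored rule, grey points all other genes, and the line marks equal levels. Pvalb stands at the left edge because it had 0 counts at 0 h.

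Tissue lists and the families of Pvalb, Il9r and Mup6 show whether related genes moved too. Of 26 major urinary proteins and other lipocalins, 25 were under 0.25 CPM in both 0 h libraries and Mup6 alone met the rule. Of 25 EF-hand calcium-binding proteins, 7 were that low at 0 h and Pvalb alone met the rule. Its closest relative, Ocm, and Calb1 had 0 counts in every library. Among the 18 of these tested beside Pvalb, 1 was higher, S100a1, which rose from 19.7 and 17.9 to 44.2 and 43.2 CPM (edgeR adjusted p = 0.00647), and their median log2 fold change was -0.15, against -0.01 over all genes tested. Of 26 genes of common gamma chain cytokine signalling, Il9r alone met the rule. The shared chain Il2rg was at 1.39 and 1.60 CPM and then 2.26 and 2.00, and the kinase genes Jak1 and Jak3 were at 54.0 to 129 CPM in all libraries. The ligand gene Il9 had 0 counts in every library. Il9r was the single gene called among the 17 tested, and the other 16 had a median log2 fold change of -0.17.

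In the skeletal muscle list (19 genes, 11 of them low at 0 h), Pvalb alone met the rule. Of the 10 others tested, Tnnt3 and Casq1 were higher and Mylpf lower in edgeR's test. Tnnt3, fast troponin T, had 0 counts in both 0 h libraries and 11 and 13 at 24 h (0.226 and 0.282 CPM), at least 8.56-fold higher against the floor of 3 counts over the group. Casq1, the calcium store protein calsequestrin, rose from 2.25 and 1.97 to 4.75 and 5.28 CPM. Mylpf, a fast myosin light chain, fell from 132 and 120 to 93.1 and 93.5 CPM. Summed without Pvalb, the list was at 190 and 170 CPM at 0 h and 165 and 161 at 24 h, with Myh1, Myh2 and Myod1 at 0 counts throughout. Mylpf made up most of that sum, and the median log2 fold change of the 10 others tested was 0.64, in the other direction from the sum.

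Of the other cell type lists, Il9r among 15 lymphocyte genes and Gcm1 among 10 placenta genes met the rule. Without Il9r the lymphocyte sum was 38.5 and 36.1 CPM and then 34.3 and 34.8, with Ptprc, Il7r, Rag1 and Rag2 at 0 counts in all libraries. Of the 6 lymphocyte genes tested beside Il9r, 0 were higher and 1 was lower. This was Cd4, which fell from 2.16 and 1.70 to 0.432 and 0.674 CPM (edgeR adjusted p = 0.0236). Without Gcm1 the placenta sum was 0.763 and 0.614 CPM and then 1.40 and 1.04, with Prl3d1, Prl3b1, Prl2c2, Tpbpa, Synb and Ctsq at 0 counts. The liver list, which does not hold Mup6, had 0 of 16 genes meeting the rule, and Fgg, a fibrinogen chain, was the single gene of 9 tested that was higher. Alb had 0, 0, 0 and 1 counts. Among 16 neuron genes 0 met the rule. Of the 9 tested, 0 were higher and 2 lower (2.65% over all genes tested), and the median log2 fold change was -0.47. Stmn2 fell from 161 and 172 to 72.5 and 72.2 CPM and Gad1 from 2.37 and 2.19 to 0.782 and 1.02. The other 7 did not pass. Among these Gad2 was at 1.18 and 1.58 CPM and then 2.41 and 2.93, and Th at 0.324 and 0.123 and then 1.235 and 0.826. Th missed the rule by its level in 0 h replicate A. The 11 genes of the two-cell-like state were all low at 0 h and 0 met the rule. Lists for heart, myeloid and mast cells, erythroid cells, testis, oocyte, epidermis, pancreas, kidney, intestine, lung, and retina and lens also held 0 members.

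Of 24 p53 targets, 0 were low at 0 h. In edgeR's test 10 were higher at 24 h (4.15% over all genes tested) and 0 lower. The other 14 did not pass, among them Cdkn1a (edgeR adjusted p = 0.605) and Bax (edgeR adjusted p = 0.401). The 24 summed to 3338 and 3209 CPM at 0 h and 4458 and 4433 at 24 h. Their median log2 fold change was 0.44, against -0.01 over all genes tested. Feeder cells were present in the culture: 17 fibroblast genes summed to 205 and 159 CPM at 0 h and 183 and 176 at 24 h, and 1 of the 13 tested, Pdgfrb, was lower. The part of feeder RNA in the members' levels was not tested. Mitochondrially encoded genes took 2.27% and 3.39% of counts at 0 h and 3.24% and 3.63% at 24 h, and without them 37 genes met the rule, 34 of them among the 38.

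**Figure D5:**
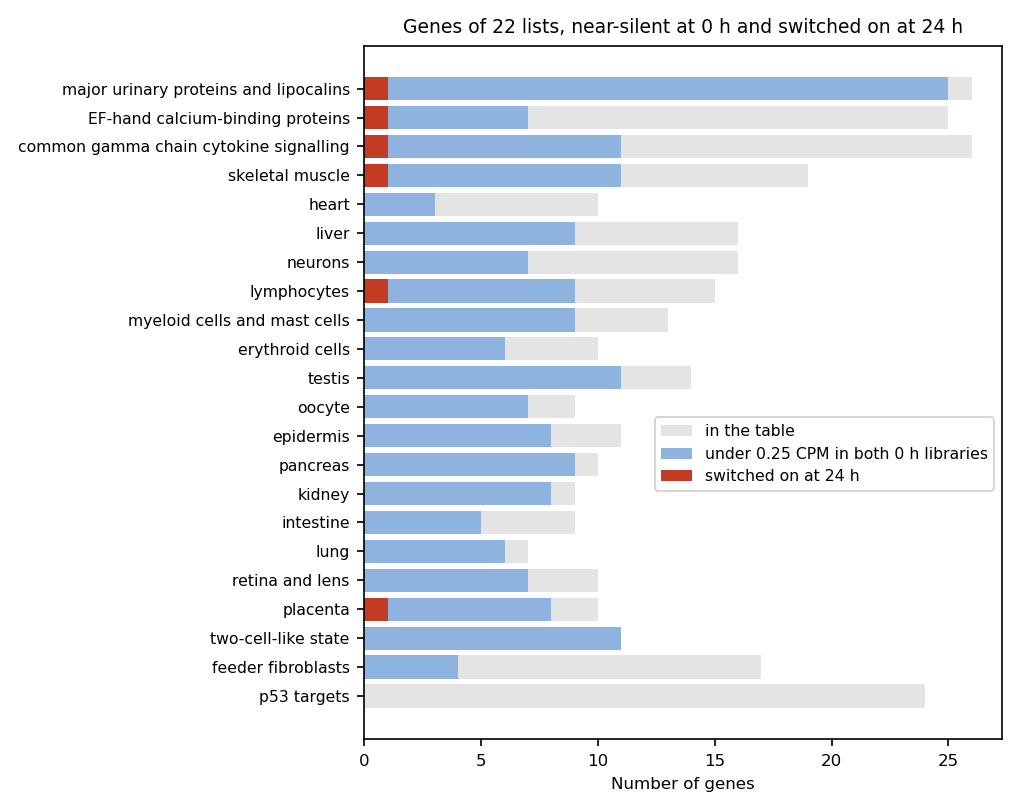
Number of genes in each of 22 lists: grey bars count the genes in the table, blue bars those under 0.25 CPM in both 0 h libraries, and red bars those that also met the rule at 24 h. In 6 lists a single gene met the rule, and in the others 0 did.

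By annotation the members were 33 coding genes, 3 lincRNAs, a processed transcript and a polymorphic pseudogene, so 86.8% were coding, against 34.5% of the 9133 genes that were low at 0 h and had at least 1 count and 80.1% of the genes tested by edgeR, whose filter on low counts all 38 passed. Their median span was 35.5 kb and their median merged exon length 3.27 kb, against 3.01 and 1.17 kb in the low class, and the exon length was 3.61 kb in the genes tested. CPM are not scaled for length. Median transcript GC content was 48.8%, against 48.3% in the low class and 50.3% in the genes tested. The 38 lay on 16 chromosomes, with 6 on chromosome 2 and 5 on chromosome 5.

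By median, promoters of the members held more CpG sites than those of other genes low at 0 h and fewer than those of expressed genes. Members had to be low at 0 h, so the difference from expressed genes is partly built into the rule. The 250 bases before the start held a median of 4 CpG sites in the 30 members with an entry, 2 in 7391 other genes low at 0 h and 16 in 9979 genes with at least 1 CPM in both 0 h libraries. The range among members was wide, from 0 in Gm5724 and Uroc1 to 30 in Rapgef4 and 39 in Ptprt. A CACCC core was found in 19 of the 30 (63.3%), against 53.4% of 19113 promoters of the same length. It was found in 45.9% of those of other genes low at 0 h and 57.5% of those of genes with at least 1 CPM. Median GC content of these promoters was 51.8% in members, 54.8% in all, 46.4% in other low genes and 60.4% in genes with at least 1 CPM. The other low genes here include genes with 0 counts in every library. How far GC content sets these shares was not tested. TATAAA was found in 2 (6.67%, against 11.8% of all, 20.4% of other low genes and 5.86% of genes with at least 1 CPM), the interferon motif in 1 (Cxcl10, 3.33%, against 3.01%) and the NF-kB form in 1 (Cxcl10, 3.33%, against 1.16%). These matches are descriptions of the letters, not of binding.

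Genes around the members were mostly not called. Within 100 kb of a member, 95 other genes were tested, of which 5 were higher (5.26%, against 4.15% of all genes tested) and 1 was lower. The 5 were Art3, Acsl5 near Gucy2g, Adgrg1 near Drc7, Map3k20 near Rapgef4 and Tmem127 near Astl, and Pdk1 near Rapgef4 was lower. Acsl5, an acyl-CoA synthetase 10.7 kb from Gucy2g on the other strand, rose from 15.0 and 19.5 to 37.7 and 43.4 CPM. Around Mup6, Mup4 and Mup7 had 0 counts, and Snx30 was at 30.8 to 35.4 CPM in all libraries. Il9r lies 5.14 kb from Snrnp25, which was at 22.6 and 21.7 CPM and then 24.5 and 25.3. Near Pvalb, Ift27 had a log2 fold change of 0.37 (edgeR adjusted p = 0.373). Exons of 11 members share bases with an opposite-strand gene, those of 0 members with a same-strand gene, and among partners in the table only Art3, which overlaps Cxcl10, averaged at least 1 CPM. Partners of 4732419C18Rik, Dscam and Dtna were not analysed here.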

How the data were processed

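Messenger RNA of 4 libraries, 2 at 0 h and 2 at 24 h, was read as single-end reads from a stranded kit, per the labels' protocols. The authors deposited raw read counts per Ensembl gene. Per the submitters' processing notes, TopHat2, HTSeq, DESeq and the build mm10 were used, with no stated versions. Neither the strand setting of the counting nor the annotation release is given in the sources used here. Symbols, coordinates and exon lengths were taken from the GENCODE M21 annotation of GRCm38, which mm10 also names, with no match for 563 identifiers, and promoters from RefSeq (GRCm38.p6, the first entry of each gene). Promoters of Cxcl11, Il10, Insm1, Dtna, Adam12, Ccdc81, Cbln2 and 8030411F24Rik were not used here.

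CPM were computed from column totals without further scaling. The test across all genes was the quasi-likelihood test of edgeR 4.0.16 (24 h against 0 h, TMM, filterByExpr with a minimum count of 10 and a total of 15, legacy=TRUE, 2-sided) in R 4.3.3, which was tested on simulated data. Intervals of ratios are Clopper-Pearson, 95%, from pooled counts, and cover counting error only. The members and lists were chosen with earlier results of these data known. Values in every library are given for Pvalb, Il9r and Mup6, for members with the highest 24 h mean, for those at the limits and for list genes, and other members by their range. Alternatives were other scalings, filters, limits, DESeq2 1.42.0, leave-one-out fits and a fit blocked on the letters A and B. Figures were drawn with matplotlib 3.10.9. Some genes are not reported here.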

Additional observations from a re-analysis of the deposited data

How the results depend on the processing

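The count of genes switched on was 33 with TMM scaling and 37 without mitochondrially encoded genes. With a 0 h limit of 0.1 CPM it was 8, with a 24 h limit of 1 CPM 14 and with a ratio of at least 8 also 14. These follow from the stricter limits. Each library left out gave 61 to 74 genes. For the mirrored rule each of the 3 stricter limits left 1 gene, and leaving out a library gave 10 to 22. Over all genes, edgeR's test called 1225, with 2589 when no filter on low counts was used (47.5% higher, against 61.1%), and DESeq2's Wald test called 1994. Leaving out 1 library gave 506 to 9416 (6040 without 0 h A, 9416 without 0 h B, 563 without 24 h A and 506 without 24 h B), and a lone library was assumed to vary like the other group. With the replicate letter as a block, 3253 were called (51.0% higher). The labels do not say whether a letter marks a shared clone or culture. Differences between A and B correlated at 0.0611 across 17999 genes between 0 h and 24 h. With 1 library per letter and time, and genes that are not independent, this value cannot settle whether the letters pair. The 25 members with the highest 24 h mean were chosen by the contrast of 24 h with 0 h. Their direction was therefore set in advance, and nothing is read from it. Their 239 log2 fold changes under alternatives ranged from 1.75 to 10.2 and 0 turned direction. Of these, 10 (in Gcm1, Mmd2, Gucy2g, Vat1l, Dscam, Nkx2-2 and Ccdc81) were no longer past the test, all without 1 of the 24 h libraries. The cause was not tested. At this depth a gene at 0.25 CPM rests on about 12 reads, so smaller differences among near-silent genes were not detectable.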

Other observations

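Genes under 0.25 CPM in both 0 h libraries, with the 38 left out, summed to 431 and 448 CPM at 0 h and to 612 and 625 CPM at 24 h. That class was chosen by its low 0 h values, so a higher 24 h sum is partly built into it. In all, 86 genes low at 0 h had a 24 h mean of at least 0.5 CPM and 14 a mean of at least 1 CPM.

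The strongest genes that missed the rule only at the 0 h limit, while staying under 0.5 CPM there, were picked after their values were seen. Alox5, the lipoxygenase that starts leukotriene synthesis, was at 0.382 and 0.410 CPM at 0 h and 5.21 and 3.91 at 24 h. The scramblase gene Plscr2 was at 0.363 and 0.328 CPM and then 2.10 and 2.76. Atp1a4, the sodium pump subunit of sperm, had 20 and 8 counts at 0 h and 142 and 83 at 24 h.

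Gm28437, a pseudogene on chromosome 1 also chosen after its values were seen, had 2 and 15 counts at 0 h, 7 in 24 h replicate A and 1221 in 24 h replicate B. The level of 26.5 CPM rests on that library alone.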
